A study of Arabidopsis thaliana with 6 samples.

Results

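The genes described here make, perceive and transmit the plant hormone ethylene in Arabidopsis thaliana. They are 30 loci of the 28259 in the deposited tables, picked by locus code and by their known roles: 10 genes of the ACC synthase (ACS) family, 5 ACC oxidase (ACO) genes, 5 receptors, RTE1, CTR1, EIN2, EIN3, EIL1, EBF1, EBF2, ERF1, ORA59 and HLS1. The choice of genes was made with earlier results of these data known. All 30 were found in each of the 6 tables. RNA-seq was run on whole wild-type Columbia (Col-0) seedlings, 10 days old, raised in short days of 10 h light and 14 h dark and kept overnight under light in water. This was exchanged for 3-OH-C10:0, the bacterial 3-hydroxydecanoic acid that the lectin receptor kinase LORE perceives (treated, 3 libraries), or for the solvent dimethyl sulfoxide (DMSO, 3 libraries), and seedlings were collected 8 h later. The comparison thus asks how a wild-type seedling responds to this molecule at a single time. The labels give its concentration as micromolar in one field and as millimolar in another, so no dose is stated here, and no label says whether the libraries of a group came from separate cultures or pools. P-values therefore measure the spread between these libraries, which may be technical.

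Ethylene is made from methionine by way of S-adenosylmethionine. ACC synthases turn this compound into 1-aminocyclopropane-1-carboxylate (ACC), commonly the limiting step, and ACC oxidases turn ACC into ethylene. The receptors sit in the endoplasmic reticulum and, without ethylene, keep the kinase CTR1 active, which holds EIN2 in check. When ethylene binds, EIN2 is cleaved and the transcription factors EIN3 and EIL1, which the F-box proteins EBF1 and EBF2 otherwise send to the proteasome, accumulate and switch on genes such as ERF1. In immune responses of Arabidopsis the kinases MPK3 and MPK6 phosphorylate ACS2 and ACS6 and slow their breakdown, so that ethylene output is set at the protein level as well as by transcripts.

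Libraries held 18064723 to 27131500 estimated counts, so that 3 counts in a single library corresponded to 0.115 to 0.168 CPM (counts divided by library totals that were scaled by TMM, the trimmed mean of M values). The members took 0.256 to 0.308% of all counts in DMSO libraries and 0.346 to 0.364% in treated libraries. Treated replicate 3, the deepest library, stood apart in its group, with a mean chi-square per gene of 23.3 and 23 against treated replicates 1 and 2, which gave 4.81 against each other, a measure that grows with depth. It also had the highest sum of green shoot markers in its group, and without it 15 members rose and 1 fell, against 16 and 1 with it. FRK1, an immune marker kinase, and LORE were both higher in every treated library than in any DMSO library, with log2 fold changes of 8.24 and 1.90. Markers of both organs were present in every library and none was at 0. The root marker AGP30, however, had only 3, 2 and 1 counts in the treated libraries, against 352, 248 and 425 with DMSO. Of 9 root markers 5 fell, 1 rose and 3 did not pass, where 35.8% of all tested genes fell and 35.6% rose. The summed level of the 9 lay between 1330 and 1430 CPM in DMSO libraries and between 663 and 950 CPM in treated libraries. PYK10 alone made up 1242 to 1338 CPM and 593 to 877 CPM of these sums, and the other 8 root markers together 84.2 to 91.5 CPM and 69.7 to 75.3 CPM. Among those 8, AGP30 had by far the largest fall (log2 fold change -7.34). It stood at 17.4, 11.7 and 19.7 CPM with DMSO and at 0.153, 0.112 and 0.038 CPM with 3-OH-C10:0. SCR, the 1 that rose, went from 36.4 ± 1.51 to 42.7 ± 2.07 CPM. Both were named after their values were seen. The summed level of 6 green shoot markers, genes of photosynthesis, lay between 47200 and 51700 CPM and between 12000 and 17600 CPM. All 6 fell, against 35.8% of all tested genes. These shifts went along with every change given here, and their part in it was not tested. In whole seedlings fewer cells of a type and less RNA per cell cannot be told apart.

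Of the 30 members, 27 passed the filter on low counts. Genes are said to have risen or fallen where edgeR's quasi-likelihood test gave an adjusted p under 0.05 over all tested genes. By that rule 16 members rose, 1 fell and 10 did not pass, so 59.3% of those tested rose and 3.7% fell. Among all 19768 tested genes 71.4% were called, 35.6% higher and 35.8% lower in treated seedlings. The median log2 fold change was 0.49 over the 27 members and -0.04 over all tested genes. All 3 treated libraries lay above all 3 DMSO libraries for 15 of the 27 members (55.6%), against 37.7% of all tested genes. Under upper-quartile scaling, which moved the median of all genes to -0.29, 11 members rose and 6 fell, and over all genes the split went from 7036 higher and 7083 lower to 5248 and 9168. Under that scaling ACS10, AT1G12010, ETR2, RTE1 and EBF2 lost their calls, and ACS12, EFE, ACO1, EIN2 and EBF1 passed as lower.

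**Figure D1:**
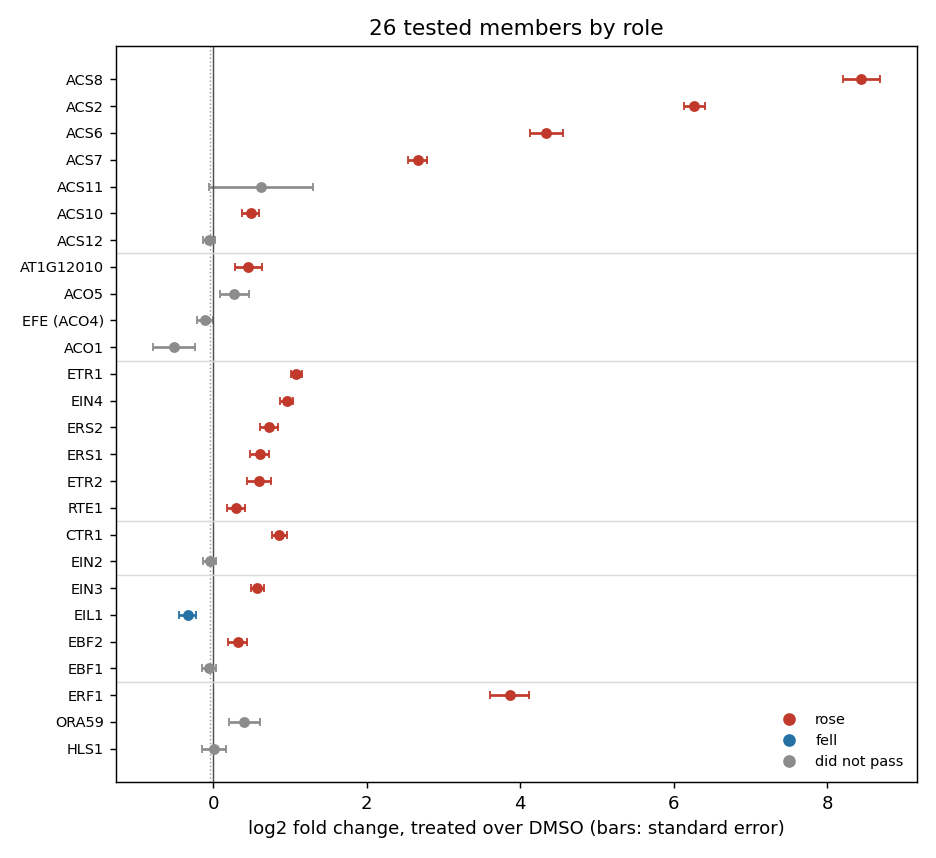
Log2 fold change, treated over DMSO, of 26 tested members (horizontal axis), ordered by role (ACC synthase family, ACC oxidases, receptors with RTE1, CTR1 and EIN2, the EIN3 and EBF genes, targets); bars are standard errors, colours give the call of edgeR's quasi-likelihood test, and the dotted line marks the median of all tested genes, -0.04. ACS8, ACS2, ACS6, ERF1 and ACS7 lie between 2.66 and 8.45, whereas the receptors, CTR1 and EIN3 lie between 0.58 and 1.08; under upper-quartile scaling ETR2, RTE1, ACS10, EBF2 and AT1G12010 lost their calls.

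Of the 5 largest log2 fold changes among the tested members, 4 were in ACC synthase genes. Of the 8 ACC synthase genes proper, ACS2, ACS6, ACS7 and ACS8 rose 6.34-fold to 349-fold, ACS11 did not pass, and ACS4, ACS5 and ACS9 had too few counts to be tested. In DMSO seedlings ACS7 supplied most of the ACC synthase transcript, and in treated seedlings ACS7 shared it with ACS6, ACS2 and ACS8. All 4 calls held in the 14 alternative settings. The promoters of these genes, 300 bases up to the annotated gene start, are shown because the 4 genes moved together. They are given 5′ to 3′ on the plus strand of TAIR10.1, the strand of all 4 genes, as read from the RefSeq genome, with capitals marking matches on either strand to the W box of WRKY factors (TTGACC or TTGACT), the core of the EIN3 site (ATGTA), the GCC box of ERF factors (GCCGCC) or the G box (CACGTG). No match overlapped another.
ACS2 promoter, chr1:175406-175705: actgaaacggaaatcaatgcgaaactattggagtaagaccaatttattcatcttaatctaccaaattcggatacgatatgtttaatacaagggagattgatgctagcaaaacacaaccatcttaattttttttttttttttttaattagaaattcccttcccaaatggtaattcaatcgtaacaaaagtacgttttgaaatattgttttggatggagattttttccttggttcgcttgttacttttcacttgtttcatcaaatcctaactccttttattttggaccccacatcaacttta
ACS6 promoter, chr4:6863679-6863978: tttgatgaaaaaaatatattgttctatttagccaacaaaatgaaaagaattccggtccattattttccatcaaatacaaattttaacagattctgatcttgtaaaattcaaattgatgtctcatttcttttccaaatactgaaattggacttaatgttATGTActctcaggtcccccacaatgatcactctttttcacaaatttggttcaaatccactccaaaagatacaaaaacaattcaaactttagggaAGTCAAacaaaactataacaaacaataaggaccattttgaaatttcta
ACS7 promoter, chr4:13274900-13275199: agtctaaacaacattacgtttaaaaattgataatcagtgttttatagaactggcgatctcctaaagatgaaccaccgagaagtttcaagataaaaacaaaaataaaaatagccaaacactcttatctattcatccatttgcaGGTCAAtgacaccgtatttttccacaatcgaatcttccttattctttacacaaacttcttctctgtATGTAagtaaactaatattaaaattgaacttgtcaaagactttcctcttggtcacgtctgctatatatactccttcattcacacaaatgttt
ACS8 promoter, chr4:17751779-17752078: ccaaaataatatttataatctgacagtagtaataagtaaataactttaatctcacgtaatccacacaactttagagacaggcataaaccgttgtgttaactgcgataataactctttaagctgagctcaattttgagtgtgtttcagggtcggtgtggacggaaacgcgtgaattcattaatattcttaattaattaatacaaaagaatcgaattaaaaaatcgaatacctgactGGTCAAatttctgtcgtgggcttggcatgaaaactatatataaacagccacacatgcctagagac
Within these windows ACS6 and ACS7 each held 1 W box and 1 EIN3 core, ACS8 held 1 W box and ACS2 held no match. Over 27443 protein-coding promoters of the same length, 32.3% held a W box and 58.9% an EIN3 core. A W box was found in 8 of the 30 members (26.7%) and an EIN3 core in 14 (46.7%). The matches describe letters in a short window and do not show that a factor binds there.

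ACS2 (AT1G01480, chromosome 1, 175706 to 178406), an isoform known as a target of MPK3 and MPK6, stood at 0.891, 0.614 and 0.741 CPM in the DMSO libraries and at 53.9, 57.7 and 62.4 CPM in the treated libraries. The gene was low without the elicitor, with 18, 13 and 16 counts, and plainly present in all 3 treated libraries. Its log2 fold change was 6.27 ± 0.14 (SE), a 77.1-fold difference with an adjusted p of 1.6e-10.

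ACS8 (AT4G37770, chromosome 4, 17752079 to 17754157) had 6, 2 and 1 counts in the DMSO libraries and 1055, 1007 and 1197 counts in the treated libraries, or 53.7, 56.5 and 45.8 CPM. Its DMSO level was therefore near the limit of these libraries, and per length its treated mean of 28.4 FPKM was close to the 29.4 FPKM of ACS2. The log2 fold change of 8.45 ± 0.24 (adjusted p = 1.1e-09) rests on 9 DMSO counts in all and became 9.41 without DMSO replicate 1, the library with most of them. ACS8 and ACS4 shared 79.5% of their aligned coding bases, and ACS4 was listed at 0 in all DMSO libraries and in 2 treated libraries.

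ACS6 (AT4G11280, chromosome 4, 6863979 to 6866116), the other isoform known to be phosphorylated by MPK3 and MPK6, stood at 7.67, 4.72 and 6.30 CPM in the DMSO libraries and at 138, 142 and 98.0 CPM in the treated ones. The groups were far apart, and treated replicate 3 was the lowest of its group. ACS6 had a log2 fold change of 4.34 ± 0.21 (20.2-fold, adjusted p = 6.3e-07).

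ACS7 (AT4G26200, chromosome 4, 13275200 to 13277188), which lacks the C-terminal phosphorylation sites of the other branches, was at 19.4, 26.9 and 24.5 CPM with DMSO and at 159.8, 154 and 135 CPM with 3-OH-C10:0. It was the most abundant ACC synthase transcript per length in both groups, with 15.3 ± 2.25 FPKM (fragments per kilobase of transcript at a common depth, the authors' values) in DMSO and 91.7 ± 8.47 FPKM in treated seedlings (SD, n = 3). Its log2 fold change was 2.66 ± 0.13 (6.34-fold, adjusted p = 2.4e-08), smaller than that of ACS6, ACS2 and ACS8.

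ACS11 overlapped between groups, with 0.743, 0.614 and 0.278 CPM in DMSO and 0.204, 0.561 and 1.61 CPM in treated libraries (log2 fold change 0.62, adjusted p = 0.43). The sign of that difference came from treated replicate 3, without which it was -0.52. ACS5 had 7, 2 and 0 counts with DMSO and 1 count in each treated library, so DMSO exceeded treated by a ratio of 3.03 (95% interval from counting error, 0.756 to 17.4). ACS9 had 0, 3 and 2 counts with DMSO and none after treatment. With the treated group set to a floor of 3 counts, DMSO exceeded treated by a ratio of 1.68. That ratio takes the DMSO counts as exact, so it is not a lower limit of the change. ACS4 had 3 counts, all in treated replicate 3. None of the 3 had an adjusted p under 0.05 when the filter was lifted (0.216 for ACS4, 0.288 for ACS5 and 0.0994 for ACS9), so at this depth no change in them was detectable. The interval covers counting error only, and the floor covers that of the treated counts only.

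Summed over the 8 genes, ACC synthase transcripts stood at 18.7, 20.8 and 20.4 FPKM in DMSO and at 229.5, 237 and 193 FPKM in treated libraries, an 11.0-fold difference of the means. ACS7 made up 76.2 ± 7.25% of the DMSO sum and 41.7 ± 1.09% of the treated sum. ACS6 went from 18.6 ± 5.65% to 31.6 ± 3.19%, ACS2 from 2.04 ± 0.49% to 13.5 ± 2.37%, and ACS8 from 0.432 ± 0.415% to 12.9 ± 0.27%. None of these 4 shares overlapped between the groups. Shares within a library do not depend on how libraries are scaled against each other. Within a library the ratio of ACS7 to ACS6 was 2.80, 6.28 and 4.29 with DMSO and 1.276, 1.203 and 1.521 with 3-OH-C10:0. Without overlap, the exact two-sided permutation p was 0.1, the smallest that 3 against 3 libraries allow, also after adjustment over the 7 within-library ratios computed here. All 7 ratios were chosen after values were seen, and the adjustment does not cover that choice.

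**Figure D2:**
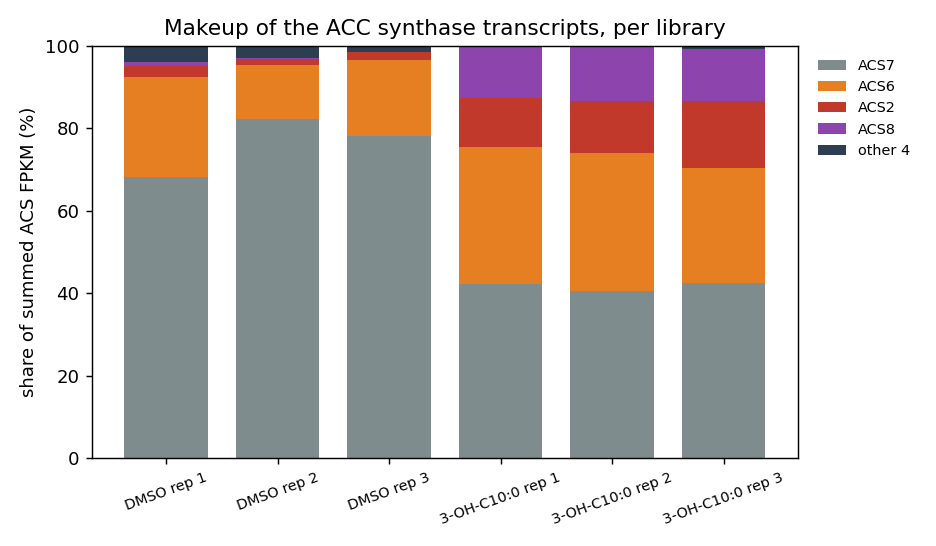
Share of each ACC synthase gene in the summed FPKM of the 8 genes (vertical axis, percent), in each of the 6 libraries. ACS7 takes 68.2 to 82.2% of the 3 DMSO bars and 40.5 to 42.4% of the 3 treated bars, where ACS6, ACS2 and ACS8 take most of the rest.

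ACS10 and ACS12 are family members known to act as aminotransferases rather than ACC synthases. ACS10 rose, from 30.6 ± 3.29 CPM with DMSO to 43.1 ± 5.58 CPM (log2 fold change 0.49 ± 0.11, adjusted p = 0.0026), a call lost under upper-quartile scaling (0.24, adjusted p = 0.0847). ACS12 differed by less than the spread between libraries, at 34.1 ± 0.44 and 32.8 ± 2.49 CPM (adjusted p = 0.56), but passed as lower under upper-quartile scaling (-0.31, adjusted p = 0.00502). Its annotated span overlaps the opposite-strand gene AT5G51680 by 1495 bases, so without strand in the counting its reads could not be assigned with certainty.

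The ACC oxidase genes described here, which carry out the last step, showed little of this, since AT1G12010 rose by a narrow call and EFE, ACO5 and ACO1 did not pass. EFE (AT1G05010, also called ACO4), the ethylene-forming enzyme, stood at 421 ± 36.9 and 390.2 ± 23.1 CPM (-0.11, adjusted p = 0.358), and passed as lower under upper-quartile scaling (-0.36, adjusted p = 0.00759). ACO5 stood at 59.2 ± 15.1 and 71.8 ± 8.89 CPM (0.28, adjusted p = 0.217) and passed without DMSO replicate 2 (0.46, adjusted p = 0.0304). ACO1 stood at 15.5 ± 3.64 and 11.0 ± 4.10 CPM (-0.51 ± 0.28, adjusted p = 0.135), and passed as lower in 3 of the 14 alternatives, among them upper-quartile scaling (-0.76, adjusted p = 0.0395) and leaving out treated replicate 1 (-0.85, adjusted p = 0.00359).

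AT1G12010, which the rule lists with the oxidases and RefSeq annotates as an oxygenase, stood at 42.9, 70.1 and 60.3 CPM with DMSO and at 79.0, 70.9 and 88.4 CPM with 3-OH-C10:0. The groups lay apart by less than 1 CPM at their nearest values. Its call was narrow (log2 fold change 0.46 ± 0.17, adjusted p = 0.0413) and was lost in 8 of the 14 alternatives. ACC oxidase genes resemble each other in sequence, and the authors' counting could divide reads among them. The estimated counts of AT1G12010 were whole numbers in every library, and any sharing of reads was not tested.

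**Figure D3:**
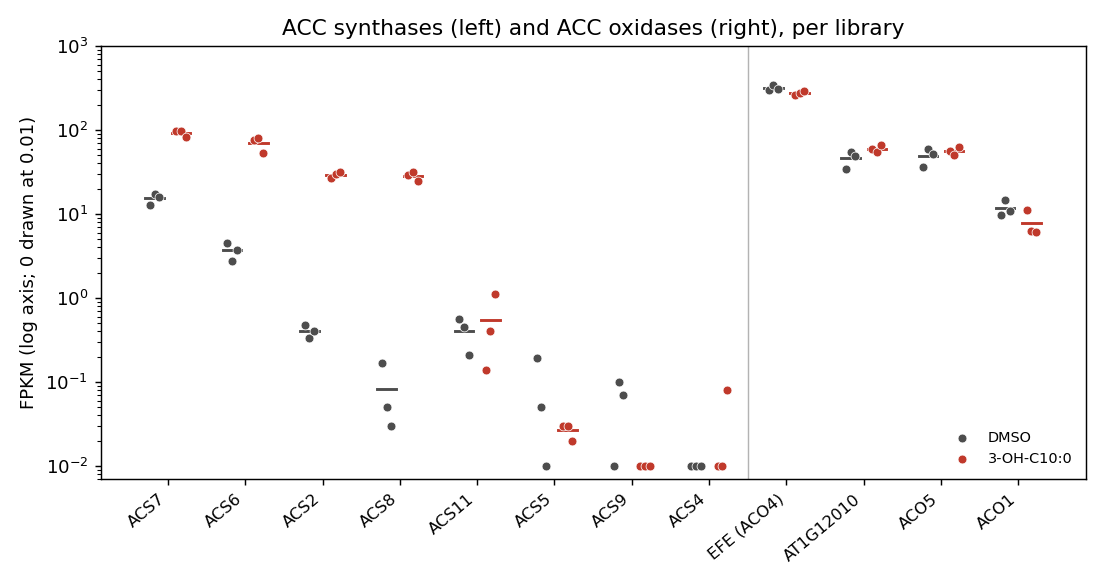
FPKM of 8 ACC synthase genes (left of the line) and 4 ACC oxidase genes (right) in each library; the vertical axis is logarithmic, values of 0 are drawn at 0.01, points are libraries and bars are group means. ACS7, ACS6, ACS2 and ACS8 separate by group, from means of 0.083 to 15.3 FPKM with DMSO to means of 28.4 to 91.7 FPKM with 3-OH-C10:0. In these 4 oxidases the groups overlap or lie close together. EFE lies slightly lower in the treated libraries in FPKM although its CPM values overlap, and AT1G12010 overlaps in FPKM although its CPM values do not.

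All 5 receptor genes rose, by 1.51-fold to 2.12-fold, where 35.6% of all tested genes rose. The call of ETR2 was lost under upper-quartile scaling (0.34, adjusted p = 0.0754). In Arabidopsis the transcripts of ERS1, ETR2 and ERS2 are known to rise with ethylene, whereas those of ETR1 and EIN4 are known to change little. Here ETR1 and EIN4 had the highest log2 fold changes of the 5. These receptors act as repressors of the response when they are not bound.

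ETR1 (AT1G66340, chromosome 1, 24734162 to 24737756), the receptor with a complete histidine kinase domain and a receiver domain, was at 37.4, 36.5 and 37.3 CPM with DMSO and at 80.2, 78.4 and 77.0 CPM with 3-OH-C10:0. Both groups were tight and well apart. The log2 fold change of ETR1 was 1.08 ± 0.07 (adjusted p = 2.6e-07).

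EIN4, which like ETR1 carries a receiver domain, stood at 22.9, 20.4 and 22.7 CPM and at 44.7, 42.0 and 41.6 CPM. It was about as well separated, with a log2 fold change of 0.96 ± 0.08 (adjusted p = 1.8e-06). ERS2, without a receiver domain, went from 15.0 ± 1.56 to 24.8 ± 2.68 CPM (0.73 ± 0.11, adjusted p = 1.6e-04).

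ERS1 (AT2G40940, chromosome 2, 17084321 to 17087326), the most abundant receptor per length, was at 94.4, 135 and 116 CPM with DMSO and at 180.4, 166 and 179 CPM with 3-OH-C10:0. Its DMSO libraries were spread more widely than its treated ones, and no treated library reached down to them. ERS1 had a log2 fold change of 0.61 ± 0.12 (adjusted p = 0.00101). ETR2 was at 30.2, 46.8 and 35.1 CPM and at 61.2, 57.8 and 50.3 CPM, with DMSO replicate 2 close to the lowest treated library (0.59 ± 0.16, adjusted p = 0.00805).

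Ordered by log2 fold change, the receptors ran ETR1, EIN4, ERS2, ERS1 and ETR2. The standard errors of the genes ranged from 0.07 to 0.16, and differences between neighbours in this order were not tested. The ratio of ETR1 to ERS1 within a library was 0.281 ± 0.0538 with DMSO and 0.383 ± 0.0175 with 3-OH-C10:0, without overlap (exact two-sided permutation p = 0.1, the smallest possible here). The subfamily of ETR1 and ERS1 summed to 63.8 ± 7.65 FPKM and 99.4 ± 2.04 FPKM, and that of ETR2, ERS2 and EIN4 to 26.9 ± 2.08 and 42.1 ± 1.67 FPKM. Both subfamilies thus had more transcript in every treated library than in any DMSO library. Receptor coding sequences were 59.6 to 69.2% identical in pairs.

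RTE1 encodes a membrane protein that promotes the repressing state of ETR1. It stood at 13.8, 17.1 and 14.8 CPM with DMSO and at 20.3, 16.5 and 19.2 CPM with 3-OH-C10:0, and these groups overlapped. Its call (0.29 ± 0.12, adjusted p = 0.042) was lost in 10 of the 14 alternatives.

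Next in the pathway, CTR1 rose and EIN2 did not pass. CTR1 (AT5G03730, chromosome 5, 974360 to 979849), the kinase that represses the pathway together with the receptors, was at 120.1, 150.2 and 137 CPM with DMSO and at 247, 239 and 254 CPM with 3-OH-C10:0. Every treated library lay well above every DMSO library. The log2 fold change of CTR1 was 0.86 ± 0.10 (1.82-fold, adjusted p = 1.7e-05), and its call held in all 14 alternatives.

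EIN2 (AT5G03280), the membrane protein whose cleaved end carries the signal to the nucleus, was at 133, 149 and 131 CPM with DMSO and at 131, 134 and 136 CPM with 3-OH-C10:0. The groups overlapped in CPM (log2 fold change -0.05 ± 0.08, adjusted p = 0.629), although EIN2 passed as lower under upper-quartile scaling (-0.30, adjusted p = 0.00712). Within a library the ratio of CTR1 to EIN2 per length was 1.41, 1.59 and 1.64 with DMSO and 2.97, 2.82 and 2.95 with 3-OH-C10:0.

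CTR1 works in a complex with the receptors, and its level was also set against theirs. Its FPKM divided by that of the 5 receptors summed was 0.509, 0.499 and 0.506 in DMSO libraries and 0.538, 0.555 and 0.574 in treated libraries. The 2 groups did not overlap (exact two-sided permutation p = 0.1, the smallest possible here), but the means differed by far less than the receptor sum itself, which went from 90.6 ± 9.73 to 141.6 ± 3.19 FPKM.

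The paired transcription factors moved apart. EIN3 (AT3G20770, chromosome 3, 7260429 to 7263384), the main ethylene transcription factor, was at 133, 152 and 146 CPM with DMSO and at 213, 203 and 227 CPM with 3-OH-C10:0. It rose in every treated library relative to all DMSO libraries (log2 fold change 0.58 ± 0.09, 1.49-fold, adjusted p = 1.6e-04) and kept its call in all 14 alternatives.

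EIL1 (AT2G27050, chromosome 2, 11545656 to 11548293), its nearest relative with overlapping function, was at 68.9, 75.1 and 73.6 CPM with DMSO and at 51.7, 52.5 and 68.3 CPM with 3-OH-C10:0. Treated replicate 3 lay just under the lowest DMSO library. EIL1 was the only one of the 27 members that fell in the reported fit, with a log2 fold change of -0.33 ± 0.11 (adjusted p = 0.0185). That call was lost without DMSO replicate 2 (adjusted p = 0.0563), without treated replicate 1 (0.0886) and without treated replicate 2 (0.0857).

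Per length, EIN3 exceeded EIL1 1.81, 1.90 and 1.87 times in the DMSO libraries and 3.86, 3.63 and 3.12 times in the treated libraries. The EIN3 share of the pair thus went from 65.0 ± 0.52% to 77.9 ± 1.91%, without overlap (exact two-sided permutation p of the ratio = 0.1, the smallest possible here). Their coding sequences were 82.2% identical over the aligned bases, so reads could be divided between them in the authors' counting. The estimated counts of both genes were whole numbers in every library, and any sharing of reads was not tested.

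Of the F-box genes that target EIN3 and EIL1, EBF2 rose by a narrow call and EBF1 did not pass. EBF2 (AT5G25350, chromosome 5, 8794252 to 8797349), itself known as an ethylene-induced feedback gene, was at 227, 308 and 269 CPM with DMSO and at 354, 324 and 325 CPM with 3-OH-C10:0. DMSO replicate 2 came close to the treated libraries. EBF2 had a log2 fold change of 0.32 ± 0.12 (adjusted p = 0.0314), and the call was lost in 7 of the 14 alternatives, among them leaving out DMSO replicate 1, DMSO replicate 3 or treated replicate 1. Its span overlaps the opposite-strand gene AT5G25340 by 533 bases and the annotated antisense RNA AT5G03965 by 187 bases, and the former was at 0.17 FPKM or lower in every library.

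EBF1 stood at 106 ± 11.0 and 102 ± 5.57 CPM (-0.06, adjusted p = 0.612), and passed as lower under upper-quartile scaling (-0.31, adjusted p = 0.0124). The ratio of EBF2 to EBF1 within a library was 2.18, 2.92 and 3.08 with DMSO and 3.65, 3.62 and 3.27 with 3-OH-C10:0. The groups did not overlap, and the nearest values, DMSO replicate 3 and treated replicate 3, lay close together.

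**Figure D4:**
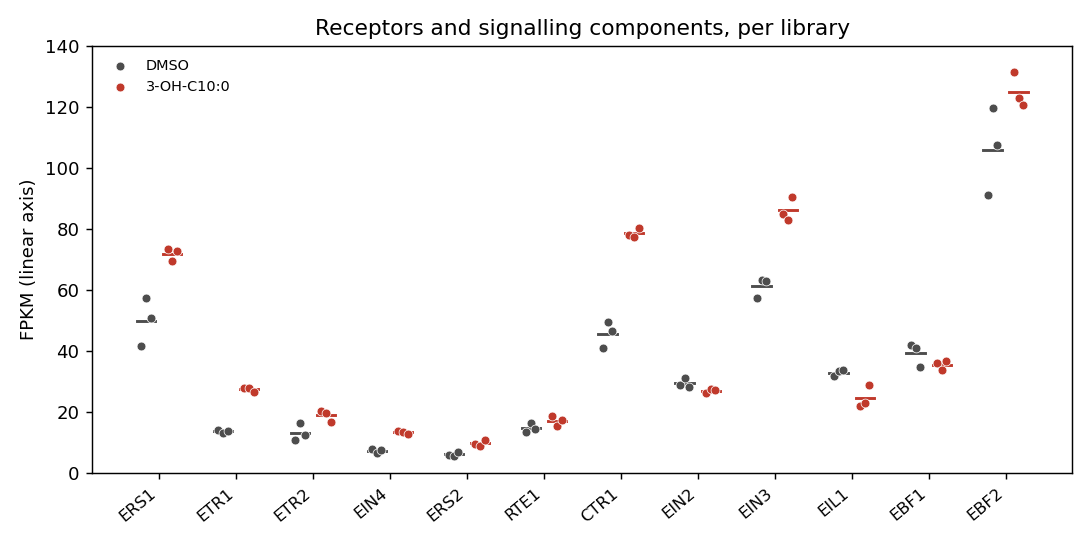
FPKM of 12 receptor and signalling genes in each library (linear vertical axis from 0); points are libraries, bars are group means and colours give the group. ETR1, EIN4, CTR1 and EIN3 stand apart by group, EBF1 overlaps, EIL1 lies lower in the treated libraries, and EIN2 lies slightly lower in them in FPKM although its CPM values overlap.

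The 3 downstream genes differed. ERF1 (AT3G23240, chromosome 3, 8295617 to 8296604), a transcription factor gene switched on by EIN3 and also by jasmonate, was at 0.396, 0.944 and 0.463 CPM with DMSO and at 9.68, 8.02 and 8.88 CPM with 3-OH-C10:0. It went from 8, 20 and 10 counts in the DMSO libraries to 190, 143 and 232 counts in the treated libraries, still a low level. The log2 fold change of ERF1 was 3.86 ± 0.25 (14.6-fold, adjusted p = 2.5e-07). ORA59, an ERF factor that joins ethylene and jasmonate signals, stood at 6.59, 5.10 and 7.97 CPM and at 10.3, 6.51 and 9.14 CPM, and these values overlapped. Its log2 fold change was 0.40 ± 0.20 (adjusted p = 0.0954), and it passed without DMSO replicate 3 and without treated replicate 2. HLS1, which shapes the apical hook of dark-grown seedlings, was at 5.98 ± 0.84 and 6.07 ± 0.75 CPM (0.01, adjusted p = 0.944).

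The promoters of ERF1 and ORA59 are shown because both genes are described as targets where ethylene and jasmonate meet, and only ERF1 passed the test. They are written as for the ACC synthases, and both genes lie on the plus strand.
ERF1 promoter, chr3:8295317-8295616: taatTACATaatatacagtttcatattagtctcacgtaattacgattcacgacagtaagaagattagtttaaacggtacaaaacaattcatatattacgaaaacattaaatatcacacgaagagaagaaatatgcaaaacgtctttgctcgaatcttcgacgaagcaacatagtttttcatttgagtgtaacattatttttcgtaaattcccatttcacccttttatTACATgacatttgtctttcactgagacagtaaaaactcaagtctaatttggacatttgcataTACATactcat
ORA59 promoter, chr1:1882607-1882906: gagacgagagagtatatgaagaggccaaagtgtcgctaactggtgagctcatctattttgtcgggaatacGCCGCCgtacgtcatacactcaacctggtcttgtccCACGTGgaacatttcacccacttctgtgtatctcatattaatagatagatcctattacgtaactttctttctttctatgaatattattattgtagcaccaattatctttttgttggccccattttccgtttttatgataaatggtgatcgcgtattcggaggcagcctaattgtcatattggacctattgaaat
ERF1 held 3 EIN3 cores, and ORA59 held 1 GCC box and 1 G box, a combination that included the only GCC box among the 30 members. A GCC box was present in 620 of the 27443 promoters (2.26%) and a G box in 7.09%. An EIN3 core is far more common, in 58.9% of these promoters and in 14 of the 30 members (46.7%). EIN2, which did not pass, and EIN3 also held 3 cores each, and ACS10 held 4. Here too the matches describe letters in a short window and do not show binding.

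Per length, the order of the members changed most among the ACC synthases. By mean FPKM, EBF2 ranked 3 of the 30 in both groups. ACS7 went from rank 13 to 4, ACS6 from 22 to 8, ACS2 from 26 to 12 and ACS8 from 27 to 13. ERF1 held rank 24 in both groups, at 0.64 FPKM with DMSO and 8.95 FPKM with 3-OH-C10:0.

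**Figure D5:**
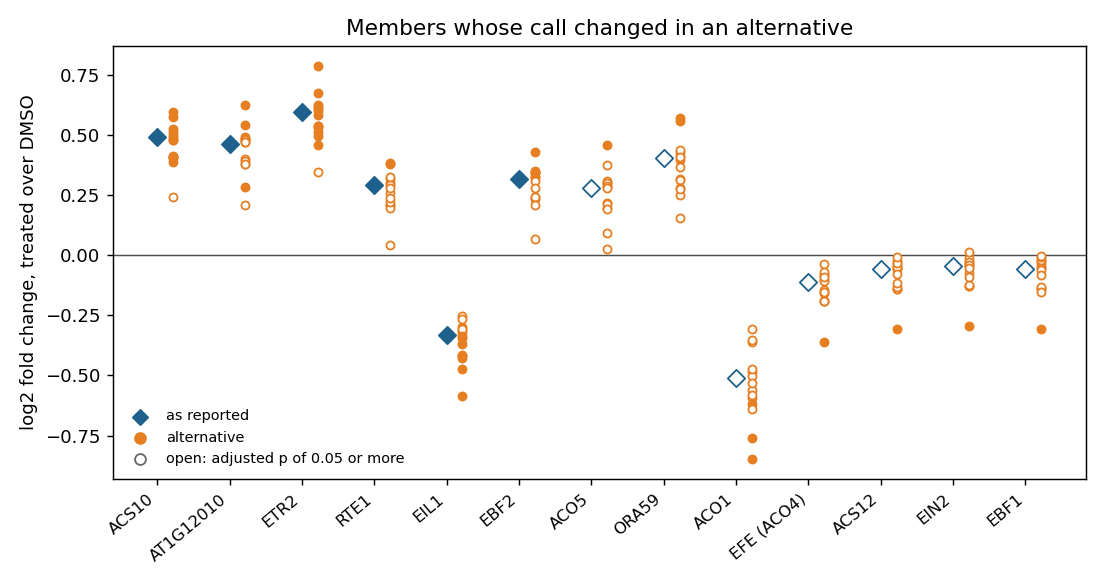
Log2 fold change (vertical axis) of 13 members whose call changed in at least 1 of 14 alternative settings; diamonds are the reported values, circles the alternatives, and open symbols have an adjusted p of 0.05 or more. All reported values lie between -0.51 and 0.59, and no member called as reported changed sign.

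Other genes of ethylene metabolism and signalling were examined as 5 further lists. These lists were chosen with earlier results of these data known, so their shares of called genes are not independent of the data. In the methionine and Yang cycle, which supplies and recycles the precursor, 6 of 13 genes rose, 3 fell and 4 did not pass, or 46.2% and 23.1% against 35.6% and 35.8% of all tested genes. SAM1, a synthetase of S-adenosylmethionine, rose, from 311 ± 17.0 CPM with DMSO to 1266 ± 47.7 CPM (log2 fold change 2.03 ± 0.11, adjusted p = 4.8e-08), and its relative MAT3 rose by 1.39 ± 0.17 (adjusted p = 7.7e-05). SAM2, named after its values were seen, went the other way, from 246 ± 9.20 to 211 ± 7.90 CPM (-0.22 ± 0.08, adjusted p = 0.0373), a call lost in 8 of the 14 alternatives (adjusted p up to 0.135). MTI1, an isomerase of the Yang cycle, fell from 60.0 ± 3.05 to 29.4 ± 2.14 CPM (-1.03 ± 0.08, adjusted p = 1.3e-06). ARD2, a dioxygenase of the cycle, rose by 0.78 ± 0.08 (adjusted p = 7.0e-06). ARD3, also named after its values were seen, had 3 counts over the DMSO group and 759 over the treated group, so that treated exceeded DMSO by a ratio of 250.5 (95% interval from counting error, 85.4 to 1217). Its treated libraries stood at 22.5, 11.2 and 4.48 CPM, far more scattered than those of SAM1.

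For the turnover of ACC synthase protein and the use of ACC, 4 of 8 tested genes rose, 3 fell and 1 did not pass. Thus 50% rose, against 35.6% of all tested genes, and the 37.5% that fell were near the 35.8% of all tested genes. LHT1, an amino acid transporter that also carries ACC, rose, from 34.6 ± 6.92 CPM with DMSO to 703 ± 34.0 CPM (log2 fold change 4.34 ± 0.16, adjusted p = 3.2e-09). XBAT32, a ubiquitin ligase that acts on ACS4 and ACS7, rose by 0.99 ± 0.10 (adjusted p = 5.5e-06). EOL2, an ETO1-like protein that targets a branch of ACC synthases for breakdown, fell from 17.5 ± 0.99 to 11.2 ± 0.70 CPM (-0.65 ± 0.10, adjusted p = 1.7e-04). ACD1 (AT1G48420), known in Arabidopsis as a D-cysteine desulfhydrase that can degrade ACC, fell, with a log2 fold change of -0.85 ± 0.09 (adjusted p = 8.3e-06). The other 2 that rose, ETO1 (0.24) and RCN1 (0.22), did so by less than the shift that another scaling brings, and both had the opposite sign under upper-quartile scaling.

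Among 10 further signalling genes 8 rose, 1 fell and 1 did not pass, where 35.6% and 35.8% of all tested genes rose and fell. OSR1, a relative of ARGOS, which is known to dampen the ethylene response, rose, from 11.5 ± 3.07 CPM with DMSO to 60.4 ± 4.40 CPM (log2 fold change 2.39 ± 0.17, adjusted p = 3.6e-06). RAN1, the copper transporter that equips the receptors, rose by 0.86 ± 0.09 (adjusted p = 5.6e-06). XRN4, an exoribonuclease known to act on EBF transcripts, rose by 0.57 ± 0.07 (adjusted p = 3.0e-05), and the EIN3 relative EIL3 rose by 0.72 ± 0.10 (adjusted p = 7.1e-05). The F-box genes for EIN2, named after their values were seen, parted, since ETP1 rose by 0.76 ± 0.11 (adjusted p = 7.7e-05) and ETP2 fell, with a log2 fold change of -0.56 ± 0.17 (adjusted p = 0.0114).

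Of 15 tested ethylene-responsive genes 12 rose and 3 did not pass, where 35.6% of all tested genes rose. ERF5 rose, from 11.9 ± 0.49 CPM with DMSO to 43.1 ± 2.72 CPM (log2 fold change 1.86 ± 0.09, adjusted p = 2.0e-08) and ERF11 by 1.80 ± 0.21 (adjusted p = 2.2e-05), both ERF transcription factors. GSTF2, a glutathione transferase, rose from 287 ± 63.9 to 2342 ± 216 CPM (3.03 ± 0.17, adjusted p = 8.7e-08), and the basic chitinase CHIB rose by 1.41 ± 0.15 (adjusted p = 3.4e-05). The genes that did not pass were ERF2 and the defensins PDF1.2A and PDF1.2B. ERF2, named after its values were seen, had 6.88, 4.44 and 17.1 CPM with DMSO and 16.0, 18.9 and 27.1 CPM with 3-OH-C10:0, and it passed in 4 of the 14 alternatives, among them leaving out DMSO replicate 3 (1.87, adjusted p = 0.00103). Several genes of this list are known to answer other defence signals as well.

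All 6 genes of a list built around the kinase cascade that acts on ACS2 and ACS6 rose, where 35.6% of all tested genes did. This list too was chosen with earlier results known, so the count describes the chosen genes only. MPK6 rose, from 48.2 ± 3.15 CPM with DMSO to 118 ± 2.19 CPM (log2 fold change 1.29 ± 0.08, adjusted p = 1.6e-07) and MPK3 from 63.1 ± 3.57 to 152 ± 9.36 CPM (1.27 ± 0.08, adjusted p = 2.9e-07). Their upstream kinases MKK5 and MKK4 rose by 1.44 ± 0.10 (adjusted p = 3.3e-07) and 1.14 ± 0.14 (adjusted p = 2.4e-05). WRKY33, a transcription factor known to activate ACS2 and ACS6 and named after its values were seen, stood at 19.2, 17.5 and 43.7 CPM with DMSO and at 296, 287 and 346 CPM with 3-OH-C10:0. Its groups were far apart although DMSO replicate 3 was the highest of its group (3.53 ± 0.39, adjusted p = 3.4e-04). Median log2 fold changes were 0.28 for the methionine and Yang cycle, 0.21 for ACC synthase turnover and ACC use, 0.63 for further signalling, 0.84 for ethylene-responsive genes and 1.36 for the kinase cascade, against -0.04 over all tested genes.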

How the data were processed

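Per the labels' protocols, total RNA of whole seedlings was extracted with TRIzol and sequenced on a HiSeq2500. The submitters' processing notes name RSEM, StringTie 1.3.1, HISAT2 2.2.4, Bowtie2 2.2.8 and fastp 0.18.0, and the build TAIR10. Roles and settings of these tools, and strandedness, are not given in the sources at hand. Estimated counts were made by the authors and deposited unnormalised, per the file headers; 3.62% were not whole and were rounded. FPKM values were deposited by the authors and used as given. Depth was 18064723 to 27131500 counts per library.

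Genes were filtered with filterByExpr (minimum count 10), scaled by TMM and tested with the quasi-likelihood F test of edgeR 4.0.16 in R 4.3.3 (two-sided, robust, Benjamini-Hochberg over 19768 genes, threshold 0.05, no replicate block). The common biological coefficient of variation was 11.3%. Standard errors came from the log2 fold change and F. Alternatives were DESeq2 1.42.0, limma 3.58.1 on log2(FPKM + 0.1) and log2(FPKM + 1), other scalings, no filter, a replicate block and leaving out each library. Replicates of a group differed by more than sampling noise.

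Coordinates, promoters and coding sequences are those of RefSeq TAIR10.1, matched by locus code for all 30 members; proteins were not compared. The values of a single member are not reported here. Members and lists were chosen with earlier results of these data known. By rule, members with a log2 fold change of at least 1 that passed, and the most abundant of each family other than the ACC oxidases, have values in every library; other members' library values, and the within-library ratios, were chosen after values were seen. Of each further list, up to 4 genes with the smallest p are named.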

Additional observations from a re-analysis of the deposited data

How the results depend on the processing

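Over 14 alternatives, 11 of the 17 called members kept their call in each, 6 lost it in some (ACS10, AT1G12010, ETR2, RTE1, EIL1 and EBF2), and 8 of the 10 members not called passed in some. No called member changed sign. Members that rose numbered 16 as reported, 11 under upper-quartile and 13 under total-count scaling, 16 with DESeq2 and 13 to 18 when a library was left out. Members that fell numbered 1 as reported, 6 under upper-quartile scaling, 2 with limma on log2(FPKM + 0.1) and 0 to 1 when a library was left out. For ACC synthase turnover and ACC use the genes that rose numbered 4, or 2 under total-count and upper-quartile scaling and with limma at either pseudocount, and 2 to 4 when a library was left out, with 2 without DMSO replicate 2. Under upper-quartile scaling ETO1 went to -0.0096 and RCN1 to -0.0343. The genes of further signalling that fell numbered 1, or 2 under total-count and upper-quartile scaling and with limma on log2(FPKM + 0.1). On FPKM with pseudocounts the log2 fold changes of low genes were smaller, such as 4.76 for ACS8, 4.43 for ACS2 and 2.61 for ERF1 at a pseudocount of 1; a pseudocount pulls low values together by construction. Beyond that, the cause was not tested.

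With the replicate number as a block, 16 members rose, with ORA59 gained (adjusted p = 0.0265) and RTE1 lost (0.0637), and 1 fell. Of the other pathway genes ERF2 passed (0.00694) and SAM2 did not (0.0507). Whether the replicate numbers pair the samples could not be settled with 3 libraries per group. Deviations of same-numbered libraries correlated at 0.05, -0.01 and 0.15, and not every library correlated best with its own number.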

Other observations

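Some further genes of the lists, named after their values were seen, add to the account. Of all tested genes 35.6% rose and 35.8% fell. The 4 EDF genes, transcription factors named for their response downstream of EIN3, all rose, by log2 fold changes of 0.47 ± 0.18 for EDF1, 0.68 ± 0.15 for EDF2, 0.84 ± 0.13 for EDF3 and 0.47 ± 0.14 for EDF4, with adjusted p-values of edgeR's quasi-likelihood test of 0.0398, 0.00178, 2.0e-04 and 0.0132. The call of EDF1 was lost in 7 of the 14 alternatives (adjusted p up to 0.271) and that of EDF4 in 2 (up to 0.16), upper-quartile scaling and leaving out treated replicate 3 among them for both. PR4, a chitin-binding defence protein, rose from 106 ± 16.9 CPM to 371 ± 91.7 CPM (1.81 ± 0.20, adjusted p = 5.2e-05). ARL, a relative of ARGOS, rose (0.69 ± 0.15, adjusted p = 0.00354). ARGOS itself passed narrowly (0.54 ± 0.20, adjusted p = 0.0346), with groups that overlapped and a call lost in 8 of the 14 alternatives (adjusted p up to 0.22). EOL1 fell from 56.6 ± 3.90 CPM to 40.8 ± 0.40 CPM (-0.47 ± 0.08, adjusted p = 3.0e-04), as did EOL2.

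DMSO replicate 3 was the highest of its group for some immune-linked genes of these lists, picked after their values were seen, and not for others. ERF6 stood at 11.5, 8.26 and 16.2 CPM in DMSO replicates 1 to 3, MKK9 at 19.2, 12.2 and 29.0 CPM, and WRKY33 at 19.2, 17.5 and 43.7 CPM. For ACS2, ACS6, ACS7 and ACS8 that library was not the highest of its group.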
